A study of Mus musculus with 36 samples.

Results

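Male marrow at 32 weeks of age was compared with male marrow at 3 weeks of age in 17 RNA-seq libraries of mouse femur, 9 at 32 weeks and 8 at 3 weeks, out of the 36 libraries of the series. The libraries are those labelled as male (sex, age and genotype are given for each library), and 1 further male library of 3 weeks was left out because its genotype label, Nox4 0/1, belongs to no group of the study and its depth was far below that of the others. Each age held 3 genotypes. Control mice carried floxed Nox4 alleles without Cre (Nox4 fl/fl), CKO mice carried the same floxed alleles with PrxCre (PrxCre +/ Nox4 fl/fl), and Nox4-/- mice, labelled Nox4 0/0, lacked exons 1 and 2 of Nox4 in the whole body. PrxCre is active in limb bud mesenchyme, so the CKO mice keep Nox4 in the blood-forming cells that make up most of a marrow library, and the Nox4-/- mice have no PrxCre. There were 3 libraries per genotype and age, except 2 for Nox4-/- males of 3 weeks. Marrow was spun out of the femur, RNA of several mice was pooled for each library, and polyadenylated RNA was sequenced, so a library is a pool of whole marrow and p-values measure the spread between such pools.

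Marrow changes its makeup between weaning and adulthood. In the young, growing animal red cells and B lymphocytes are made at a high rate to fill an expanding body, while trabecular bone is being laid down around the marrow. In the adult, long-lived plasma cells and memory T cells have settled in the marrow, and reticular cells with their processes hold blood stem cells beside the vessels. Nox4 is an NADPH oxidase that makes hydrogen peroxide, and its deletion was the variable of the study. The question here was how the marrow of males differed between the ages, with genotype as a covariate.

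Every 3-week library was deeper than every 32-week library. Totals ran from 32316236 to 49959972 counts at 3 weeks in 7 libraries, with Nox4-/- male replicate 3 at 163611881, and from 11193750 to 20972245 at 32 weeks. Depth and age therefore cannot be told apart by design. With every library thinned to the smallest total, 9923 genes were called, of which 9794 were also called at full depth, all in the same direction. Xist, the RNA of the inactive X chromosome, had at most 110 counts in 16 of the male libraries and 908 in control male 32 weeks replicate 3, against at least 8599 in any female library of that age. CKO male 32 weeks replicate 2 lay apart from the others on the second principal component of log2 CPM, and without it, the deepest library and the library with the most Xist counts 10204 genes were called.

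Age was the main axis of variation. On the first principal component, which took up 75.3% of the variance, all 9 libraries of 32 weeks lay apart from all 8 of 3 weeks. By sums of squares 74.4% of the variance lay between the ages, 7.76% between genotypes within an age and 17.9% between libraries of 1 group. Of 13768 genes tested with edgeR's quasi-likelihood test and Benjamini-Hochberg adjustment, 10739 passed an adjusted p of 0.05, which is 78.0%, with 5355 (38.9%) higher and 5384 (39.1%) lower at 32 weeks. The even split depended on the scaling, with 6041 higher and 4326 lower when libraries were scaled by their totals alone, and 4655 higher and 6420 lower with a trend on transcript length and GC content removed. So many genes were called that a call alone says little about a gene, and each group of genes below is read against these percentages. Larger changes were lopsided: 1796 genes (13%) rose and 488 (3.54%) fell by at least 1 on the log2 scale. The ages did not overlap in any library for 6567 genes (47.7%). The median log2 fold change over all tested genes was -0.015. It moved to 0.092 with scaling by totals.

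The plot of the gene lists shows the age effect of each measured member of the groups described below. Levels are given in CPM, counts scaled to a common library total, as the lowest and highest library of an age with the median, and changes are log2 fold changes of 32 weeks over 3 weeks with their standard errors. Since the libraries are of whole marrow, fewer cells of a type and less RNA per cell cannot be told apart.

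**Figure D1:**
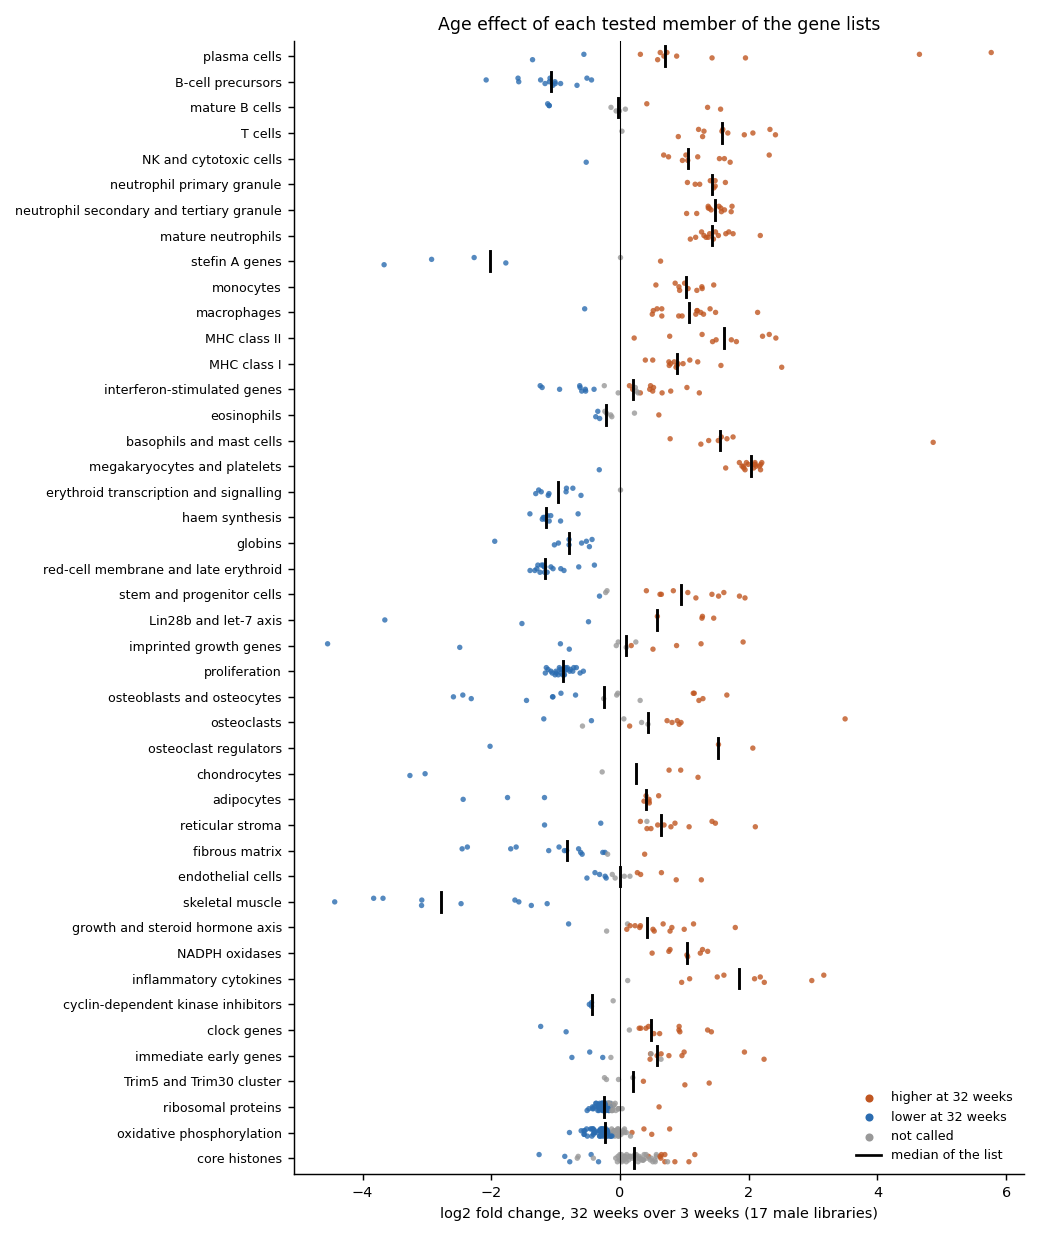
Log2 fold change of 32 weeks over 3 weeks in 17 male libraries (horizontal axis) for each tested member of the gene lists (rows); orange points were called higher, blue points lower and grey points not called, and black bars mark list medians. The 3 neutrophil lists lie wholly to the right and the red-cell and proliferation lists lie almost wholly to the left, while skeletal muscle genes have the lowest median.

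Gpnmb rose most of all genes that met the naming rule, which required that the ages did not overlap. Gpnmb, a membrane glycoprotein of macrophages and osteoclasts (chr6:49036518-49058182, RefSeq, build GRCm38.p6), stood at 0.187 to 1.31 CPM (median 0.429) at 3 weeks and 110.5 to 173 CPM (median 153) at 32 weeks, and the lowest 32-week library lay far above the highest 3-week library. Its log2 fold change was 8.28 ± 0.17 (edgeR adjusted p = 7.18e-18), and it was 8.54 in control, 7.71 in CKO and 8.83 in Nox4-/- males. Jchain, the joining chain of secreted IgM and IgA (chr5:88519809-88527897), ranged over 4.31 to 12.4 CPM (median 6.55) at 3 weeks and 281 to 563 CPM (median 371) at 32 weeks, with no overlap (5.77 ± 0.19, edgeR adjusted p = 2.94e-15). Atp6v0d2, a proton pump subunit of osteoclasts and macrophages, rose by 3.50, from 2.89 to 6.21 CPM at 3 weeks to 38.5 to 58.9 CPM at 32 weeks.

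The other 7 of the 10 largest rises were of several kinds. Wfdc17, a secreted protein of activated macrophages, rose by 2.98 from 2.41 to 7.19 CPM at 3 weeks to 27.9 to 40.3 CPM at 32 weeks. Mgp, an inhibitor of matrix calcification, rose by 2.63 from 3.42 to 18.99 CPM at 3 weeks to 33.3 to 73.3 CPM at 32 weeks. Cfb, complement factor B, rose by 2.58, and Clec7a, the beta-glucan receptor of myeloid cells, rose by 2.44. H2-Q7, a non-classical MHC class I gene, rose by 2.51, although reads of H2-Q7 may be shared with near-identical H2-Q genes. Pmp22, a membrane protein best known in myelin, rose by 2.50 and Ecm1, a secreted matrix protein, by 2.48.

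The 10 largest falls were led by BC100530, a stefin A family protease inhibitor of neutrophils. BC100530 ranged over 22.1 to 93.9 CPM (median 30.5) at 3 weeks and 2.25 to 4.17 CPM (median 2.74) at 32 weeks (-3.67 ± 0.27, edgeR adjusted p = 1.53e-10). Plek2, a pleckstrin needed late in red-cell formation, fell by 2.64, from 21.6 to 61.3 CPM at 3 weeks to 4.85 to 8.10 CPM at 32 weeks. The bone genes Bglap (osteocalcin) and Col1a1 (the main chain of type I collagen) fell by 2.44 and 2.31, and Stfa1, another stefin A gene, by 2.27. Rag1, the catalytic part of the enzyme that cuts antigen receptor genes, fell by 2.08. The manganese exporter gene Slc30a10 fell by 2.08, Nrip3 by 1.99, the chloride channel gene Clcn2 by 1.97 and Cish, a target and inhibitor of cytokine signalling, by 1.92. All 20 of these genes kept their call with libraries scaled by their totals, with globins left out of the totals, with a trend on transcript length and GC content removed, and with any 1 library left out.

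**Figure D2:**
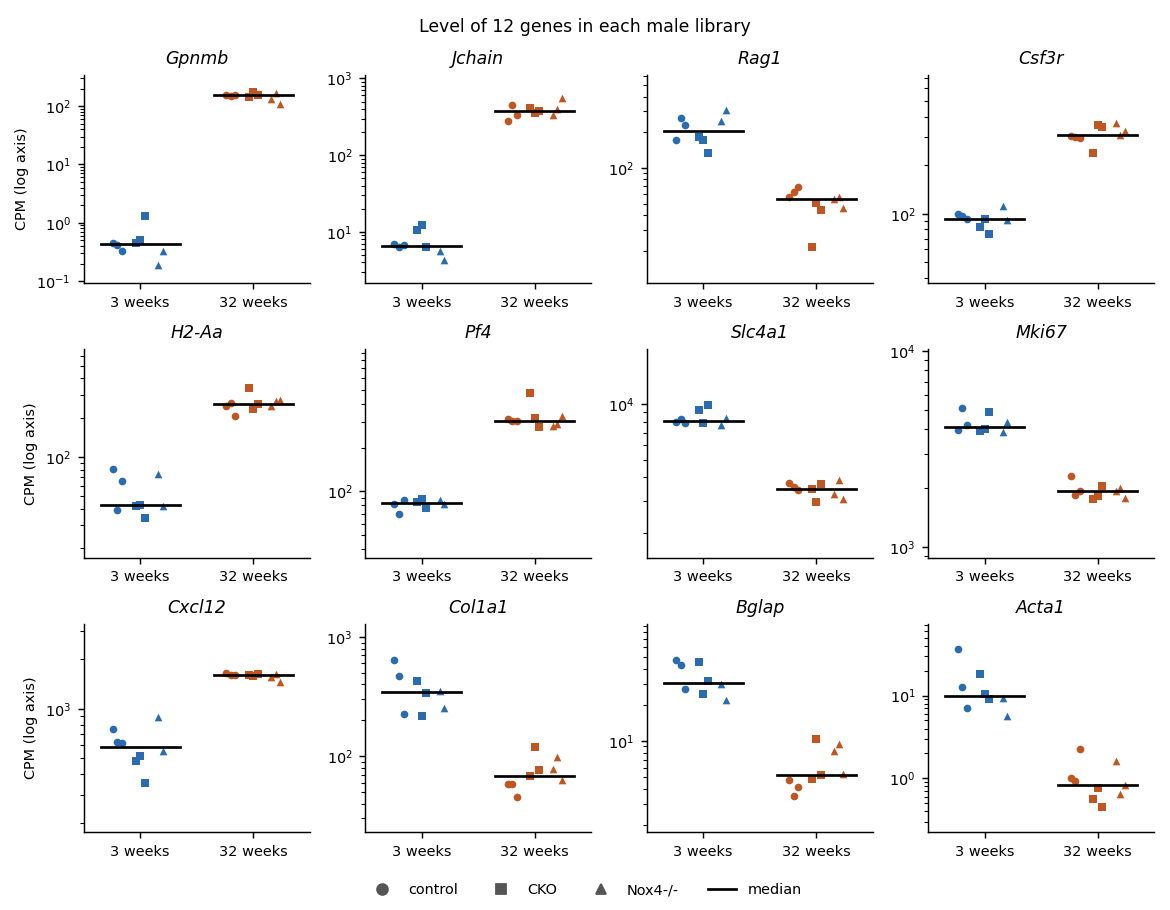
CPM of 12 genes in each of the 17 male libraries (vertical log axis) at 3 weeks (blue) and 32 weeks (orange), with circles for control, squares for CKO and triangles for Nox4-/- and a black line at the median. In each of the 12 panels the ages do not overlap, which the naming rule required of Gpnmb, Jchain, Rag1, Col1a1 and Bglap. Over all tested genes 47.7% did not overlap. Gpnmb moves from a median of 0.429 to 153 CPM.

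Genes of B-lymphocyte precursors fell while most plasma cell genes rose. All 14 genes of B-cell precursors were lower at 32 weeks, 10 of them by at least 1 on the log2 scale, and the list median was -1.07, against 39.1% called lower over all genes. Rag1 (chr2:101638252-101649532) ranged over 133 to 307 CPM (median 205) at 3 weeks and 21.4 to 68.8 CPM (median 54.4) at 32 weeks, with the lowest value in CKO male 32 weeks replicate 2, and Rag2, its partner, over 11.5 to 22.3 CPM (median 18.5) at 3 weeks and 3.88 to 7.23 CPM (median 6.21) at 32 weeks. Neither gene overlapped between the ages, which the naming rule required of Rag1. Pax5 and Ebf1, the transcription factors that set B-cell identity, fell by 1.23 and 1.09, and the interleukin-7 receptor gene Il7r by 1.10. The surrogate light chain genes changed unequally, with -1.01 for Vpreb1, -0.67 for Vpreb2 and -0.44 for Igll1, and Vpreb3 fell by 1.59. Dntt, the enzyme that adds untemplated bases at joins, had the next smallest fall after Igll1, -0.51.

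Genes of later B-cell stages were split. Ms4a1 (CD20) and Blk, found on most B cells, fell by 1.13 and 1.10. Cr2 (CD21) and Fcer2a (CD23), which mark resting mature B cells, rose by 1.56 and 1.36 and Bank1, a signalling scaffold, by 0.42. Of 10 genes, 3 were higher, 3 lower and 4 not called. In the plasma cell list 10 of 12 genes were higher and 2 were lower. Tnfrsf17, the survival receptor BCMA of plasma cells, ranged over 0 to 0.133 CPM (median 0.0344) at 3 weeks and 0.791 to 2.18 CPM (median 1.14) at 32 weeks (4.65 ± 0.34, edgeR adjusted p = 1.22e-10). Prdm1, the factor that drives plasma cell formation, rose by 1.43 and Derl3, a part of the secretory quality control, by 1.95. The 2 lower genes were Irf4 and Mzb1, at -1.36 and -0.56, and both are also active in earlier B-cell stages. The immunoglobulin constant genes of the list have no row in the table and were not analysed here.

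T-cell genes rose together. 11 of 12 were higher and the list median was 1.59. The summed level of the list went from 35.6 to 61.3 CPM at 3 weeks to 129.5 to 166 CPM at 32 weeks. Cd4 had the most counts of the list, 19235 in the 17 libraries, followed by Lck with 7901, against 1108 for Cd3e. The sum therefore weighs Cd4 most. Cd3e, a chain of the T-cell receptor complex, ranged over 0.531 to 1.98 CPM (median 0.747) at 3 weeks and 3.11 to 5.75 CPM (median 4.97) at 32 weeks. Cd4 rose by 2.41 and Cd8a by 1.28, with no overlap for either, while Lck, a kinase shared with B-cell precursors, was not called (0.029, edgeR adjusted p = 0.725). In the list of natural killer and cytotoxic cells 10 of 11 genes were higher. Ccl5, a chemokine of cytotoxic lymphocytes, led with 2.32, followed by Tbx21 (T-bet) with 1.71. Gzma, a granule protease, was the exception, with -0.53.

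Every neutrophil gene on the lists rose. All 8 primary granule genes, all 12 secondary and tertiary granule genes and all 14 genes of mature neutrophils were higher by a log2 change of 1 or more, without overlap between the ages, and the list medians were 1.43, 1.48 and 1.42. Over all genes, 13% rose that far. The granule lists follow the order in which a maturing neutrophil makes its granules, and the medians lay close together. Elane, the elastase of the first granules, ranged over 132 to 204 CPM (median 174) at 3 weeks and 339 to 646 CPM (median 541) at 32 weeks. Ltf (lactoferrin), of the second granules, ranged over 1444 to 1838 CPM (median 1553) at 3 weeks and 3631 to 5342 CPM (median 4471) at 32 weeks. Csf3r, the receptor for granulocyte colony-stimulating factor, ranged over 74.4 to 111 CPM (median 92.3) at 3 weeks and 238 to 365 CPM (median 307) at 32 weeks (1.76 ± 0.078, edgeR adjusted p = 9.45e-14). The alarmin genes S100a8 and S100a9 rose by 1.69 and 1.64. In CKO male 32 weeks replicate 2 the summed level of mature neutrophil genes was 15940 CPM, the lowest of the 9 libraries of 32 weeks, and still above the highest 3-week library at 7668 CPM.

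The stefin A genes, cysteine protease inhibitors expressed in neutrophils, did not follow the neutrophil lists. Of 6 tested, 4 fell, 1 rose and 1 was not called. Stfa2 fell by 2.93 and Stfa3 by 1.78, beside BC100530 and Stfa1, whereas Stfa2l1 rose by 0.63. Their share of all counts averaged 0.0123% ± 0.00587 (SD, n = 8) at 3 weeks and 0.00698% ± 0.00115 (SD, n = 9) at 32 weeks (exact permutation test, two-sided, p = 0.000165, adjusted p = 0.000823 over 5 such values). Control male 3 weeks replicate 3 was highest at 0.0258%, and without it the difference in means was -0.00340 instead of -0.00533 percentage points. The stefin A genes are near-identical copies in 1 cluster, and the counting could split their reads, so single members are uncertain.

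Monocyte and macrophage genes also rose. All 10 monocyte genes and 15 of 16 macrophage genes were higher, with medians of 1.03 and 1.07. Ly6c2, the mark of inflammatory monocytes, rose by 1.46 and Ccr2, their chemokine receptor, by 1.27. Cd5l, a survival factor of tissue macrophages, ranged over 22.2 to 36.9 CPM (median 29.5) at 3 weeks and 106 to 168 CPM (median 122) at 32 weeks. Among genes by which macrophages recycle the iron of red cells, Hmox1 (haem oxygenase) rose by 1.40, Slc40a1 (ferroportin) by 1.20 and Spic by 0.91. Timd4, a receptor for dying cells, was the exception on the list and fell by 0.55. In the list of NADPH oxidases and their partners 8 of 8 tested genes were higher, including both chains of the membrane core of the phagocyte oxidase, Cybb (1.28) and Cyba (1.36), and its activator Ncf1 (1.25).

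Inflammatory cytokine genes had a list median of 1.85, with 9 of 10 higher and Il18 not called (0.12). Il1b, interleukin-1 beta, ranged over 4.68 to 10.4 CPM (median 7.66) at 3 weeks and 25.9 to 53.4 CPM (median 31.7) at 32 weeks (2.18 ± 0.17, edgeR adjusted p = 2.44e-10). Ccl4 rose by 3.17 and Ccl3 by 2.24, both chemokines that draw monocytes. Ccl2 rose by 2.98, but its ages overlapped, at 0.239 to 0.587 CPM (median 0.283) at 3 weeks and 0.397 to 20.0 CPM (median 0.964) at 32 weeks, and CKO male 32 weeks replicate 2 held the highest value. Interferon-stimulated genes showed no common direction, with 11 of 25 higher, 9 lower and a median of 0.20. Without the 3 libraries that stand apart, 7 were higher and 9 lower, with a median of -0.056. Isg15, a ubiquitin-like antiviral protein, and Rsad2 (viperin) fell by 1.24 and 1.21, while Ifi44 and Zbp1 rose by 1.23 and 1.04.

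Antigen presentation genes rose. All 10 MHC class II genes were higher, with a median of 1.61, and all 14 MHC class I genes were higher with no overlap, with a median of 0.88, against 38.9% called higher over all genes. H2-Aa, the alpha chain of I-A, ranged over 33.7 to 80.9 CPM (median 42.5) at 3 weeks and 207 to 335 CPM (median 256) at 32 weeks (2.32 ± 0.16, edgeR adjusted p = 3.12e-11). Ciita, the coactivator on which class II transcription depends, ranged over 4.95 to 10.8 CPM (median 8.05) at 3 weeks and 16.2 to 25.5 CPM (median 20.1) at 32 weeks. The invariant chain gene Cd74 rose by 1.73. H2-Oa and H2-Ob, which restrain peptide loading in B cells, changed least, by 0.77 and 0.22. The call of H2-Ob was lost without any 1 of 12 of the 17 libraries, and without the 3 libraries that stand apart its value was 0.12 (edgeR adjusted p = 0.332). B2m, the light chain of class I, rose by 0.98, and Nlrc5, the class I coactivator, by 0.89. CKO male 32 weeks replicate 2 had the highest summed class II level, 1928 CPM, and the other 8 libraries of 32 weeks lay between 1222 and 1586 CPM.

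Class II genes share a promoter element, the Y box, bound by the general factor NF-Y. It was searched as TGATTGG on both strands of the RefSeq promoter windows (build GRCm38.p6, 250 bases before to 50 after each gene start). Windows were matched by symbol for 7 of 10 class II genes, and 6 of these members held the letters, in 75% of their windows against 7.82% of all 32851 windows. The 150 bases before the start are printed below for the 6 genes that hold it, so that the shared element can be seen, with the Y box in capitals.
H2-Eb1, chr17:34305717-34305866, plus strand: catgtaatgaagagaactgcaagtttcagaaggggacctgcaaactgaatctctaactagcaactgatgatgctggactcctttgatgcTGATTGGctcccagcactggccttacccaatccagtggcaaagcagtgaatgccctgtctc
H2-Aa, chr17:34287824-34287973, minus strand: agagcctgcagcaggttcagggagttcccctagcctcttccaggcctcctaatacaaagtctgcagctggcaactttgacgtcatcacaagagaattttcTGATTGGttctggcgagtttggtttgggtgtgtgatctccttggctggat
H2-DMb1, chr17:34153041-34153190, plus strand: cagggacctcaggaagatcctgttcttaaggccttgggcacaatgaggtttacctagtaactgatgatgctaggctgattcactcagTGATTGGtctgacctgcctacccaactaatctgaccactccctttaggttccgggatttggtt
H2-DMb2, chr17:34145099-34145248, plus strand: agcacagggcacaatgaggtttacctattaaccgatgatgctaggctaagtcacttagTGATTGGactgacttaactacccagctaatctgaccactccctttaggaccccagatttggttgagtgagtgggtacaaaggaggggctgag
H2-Oa, chr17:34092229-34092378, plus strand: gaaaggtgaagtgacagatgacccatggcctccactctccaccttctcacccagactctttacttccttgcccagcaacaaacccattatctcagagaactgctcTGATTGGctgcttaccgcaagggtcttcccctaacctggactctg
H2-Ob, chr17:34238755-34238904, plus strand: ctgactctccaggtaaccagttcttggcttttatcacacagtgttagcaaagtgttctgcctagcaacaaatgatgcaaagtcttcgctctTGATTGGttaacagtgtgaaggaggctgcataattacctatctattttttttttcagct
The window of H2-DMb2 lies before a transcript start inside the annotated gene (chr17:34143229-34151553), and the other 5 end where the gene begins. The element read in the same direction in all 6 and began 45 to 92 bases before that start. The genes that carry it had log2 fold changes from 0.22 to 2.42. A match is a string of letters and no measurement of binding.

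Megakaryocyte genes rose by similar amounts. 17 of 18 were higher, all 17 by at least 1, none overlapped between the ages, and the median was 2.03. Pf4, platelet factor 4, ranged over 70.1 to 89.2 CPM (median 83.8) at 3 weeks and 276 to 474 CPM (median 307) at 32 weeks (1.96 ± 0.087, edgeR adjusted p = 9.66e-14). Itga2b, the platelet integrin alpha chain, rose by 2.12 and Gp1bb, a chain of the von Willebrand factor receptor, by 2.203. The rises of these 17 genes spanned 1.64 to 2.203. Nfe2, the exception at -0.32, is a transcription factor shared with red-cell precursors. CKO male 32 weeks replicate 2 had the highest summed level, 7326 CPM, against 4482 to 5737 CPM in the other libraries of 32 weeks.

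Basophil and mast cell genes rose in all 8 tested members, with a median of 1.55. Fcer1a, the alpha chain of the IgE receptor, ranged over 0.105 to 0.5257 CPM (median 0.283) at 3 weeks and 7.01 to 10.7 CPM (median 7.51) at 32 weeks (4.87 ± 0.19, edgeR adjusted p = 1.82e-14). The basophil protease gene Mcpt8 rose by 1.76 and Prss34 by 1.66, less than Fcer1a did. Eosinophil genes had no common direction. Of 9, 1 was higher, 3 were lower and 5 were not called, and the granule genes Prg2 and Epx gave -0.24 and -0.15. The count depended on the scaling, with 2 higher and 0 lower by totals, and 1 higher and 6 lower, Prg2 and Epx among them, with the length and GC trend removed.

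Red-cell genes fell. The 9 called genes of 10 for erythroid transcription and signalling, all 10 for haem synthesis, all 9 tested globins and all 17 for the red-cell membrane were lower, with medians of -0.97, -1.14, -0.79 and -1.17. Klf1, the erythroid Krüppel-like factor, ranged over 335 to 545 CPM (median 453) at 3 weeks and 153 to 219.9 CPM (median 186) at 32 weeks, and Gata1, the master regulator, over 172 to 285 CPM (median 213) at 3 weeks and 120.4 to 154 CPM (median 129) at 32 weeks. Tfrc, the transferrin receptor through which erythroblasts take up iron, fell by 1.31. Slc4a1 (band 3), the anion exchanger of the membrane, ranged over 7683 to 9891 CPM (median 8105) at 3 weeks and 2945 to 3881 CPM (median 3470) at 32 weeks (-1.28 ± 0.069, edgeR adjusted p = 1.34e-12). Alas2, which starts haem synthesis, fell by 0.65 and Cpox, a late enzyme of the same path, by 1.40. Car1, carbonic anhydrase 1, was not called (0.0069, edgeR adjusted p = 0.957).

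Globins had the smallest of these 4 medians. Hbb-bt and Hbb-b2 have identical counts in every library and are 1 measurement given under 2 names. Counted once, 8 globins remain, all lower, with a median of -0.70. Hbb-b1 and Hbb-bs, the beta-chain rows with the most counts, had log2 fold changes of -0.48 and -0.60. How far these 2 rows share reads was not tested, and they may not be separate globins. Both are counted in the 8 globins and in the shares below. Hba-a1, an alpha chain near-identical to Hba-a2, had a change of -0.44, and only 3 of 9 globins did not overlap between the ages. One of the 3 was Hbb-bh1, an embryonic beta-like chain, which fell by 1.95. Globins took 15.5% ± 2.43 (SD, n = 8) of all counts at 3 weeks and 11.7% ± 1.69 (SD, n = 9) at 32 weeks (exact permutation test, two-sided, p = 0.00160, adjusted p = 0.00401). The shares overlapped, with Nox4-/- male 3 weeks replicate 1 highest at 19.7% and CKO male 32 weeks replicate 3 lowest at 9.16%. With globin counts taken out of the library sizes, 17 of 17 membrane genes were still lower.

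Cell division genes also fell. All 28 were lower at 32 weeks with no overlap, 6 of them by at least 1, and the median was -0.88. Mki67, the antigen of cycling cells, ranged over 3875 to 5117 CPM (median 4104) at 3 weeks and 1764 to 2304 CPM (median 1922) at 32 weeks (-1.15 ± 0.068, edgeR adjusted p = 4.97e-12). The DNA replication genes Pcna and Mcm2 fell by 0.96 and 0.99, the mitotic cyclin gene Ccnb1 by 1.16 and the kinase gene Aurka by 0.995. Of the cyclin-dependent kinase inhibitors, Cdkn1b, Cdkn2c and Cdkn2d also fell, by 0.44, 0.48 and 0.44, and Cdkn1a (p21) was not called. Cdkn2a, the senescence-linked p16 and p19 gene, had 42 counts in the 17 libraries together, too few to test.

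Promoters of division genes carry CCAAT boxes and the cell cycle homology region. Through the homology region the DREAM complex silences these genes in resting cells. CCAAT was searched on both strands, where its reverse, ATTGG, lies within the letters of the Y box, and the homology region, also on both strands, as TTTGAA or TTCGAA. Of 23 members with a window, 18 held CCAAT and 12 the homology region, in 79.2% and 50% of their windows against 37.4% and 19.2% of all windows. The 150 bases before the start of 3 members that hold both are printed to show how they lie, with both kinds of letters in capitals.
Cdc20, chr4:118437344-118437493, minus strand: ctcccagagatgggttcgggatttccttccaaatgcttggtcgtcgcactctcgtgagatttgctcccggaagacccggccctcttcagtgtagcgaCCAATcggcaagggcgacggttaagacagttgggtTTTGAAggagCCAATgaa
Cdk1, chr10:69352913-69353062, minus strand: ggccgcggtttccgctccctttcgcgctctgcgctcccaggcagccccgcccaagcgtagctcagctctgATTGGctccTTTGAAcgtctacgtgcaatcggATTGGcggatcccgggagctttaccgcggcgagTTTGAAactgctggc
Kif11, chr19:37376232-37376381, plus strand: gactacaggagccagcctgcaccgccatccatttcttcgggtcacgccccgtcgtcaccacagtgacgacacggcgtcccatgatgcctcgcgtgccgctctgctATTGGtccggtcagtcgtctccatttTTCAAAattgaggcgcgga
Cdc20 activates the ligase that ends metaphase and fell by 0.77, Cdk1 is the mitotic kinase and fell by 0.85, and Kif11 is a spindle motor and fell by 0.93. GATA sites, searched as AGATAA or TGATAA, were in 18.6% of all windows. Among groups that fell, erythroid regulators held them in 5 of 11 windows (45.5%) and haem synthesis genes in 3 of 9 (33.3%). Red-cell membrane genes, which also fell, held them in 4 of 11 (36.4%), and megakaryocyte genes, which rose, in 6 of 13 (46.2%). The ETS letters GGAAGT were found in 8 of 13 megakaryocyte windows (61.5%), against 23.8% of all. These percentages rest on few windows.

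**Figure D3:**
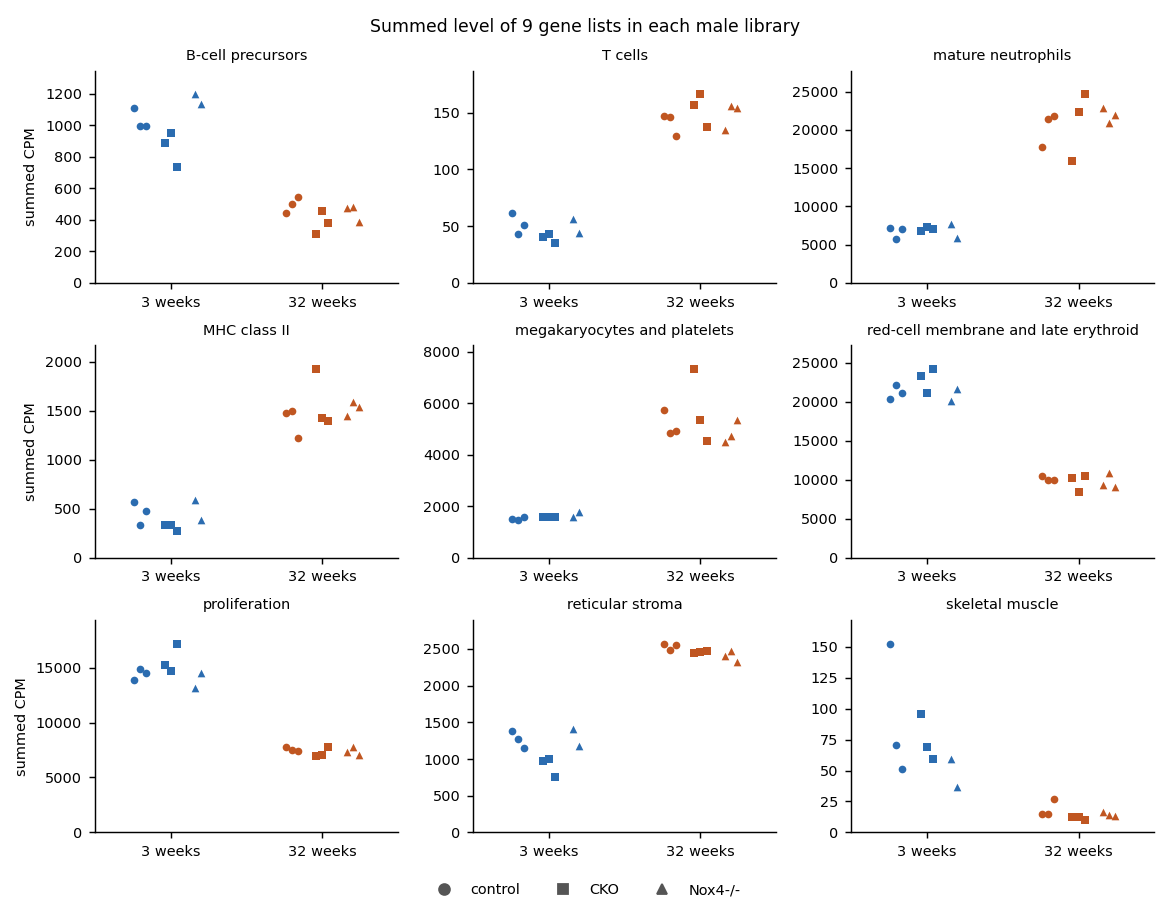
Summed CPM of 9 gene lists in each male library (vertical axes from 0) at 3 weeks (blue) and 32 weeks (orange), with circles for control, squares for CKO and triangles for Nox4-/-. In each of the 9 panels the ages do not overlap, with proliferation genes at 13190 to 17195 CPM at 3 weeks and 6939 to 7816 at 32 weeks.

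Genes of stem and early progenitor cells were mostly higher. 11 of 14 rose, 1 fell and 2 were not called. Ly6a (Sca-1), a surface mark of mouse stem cells that is also on lymphocytes and endothelium, ranged over 12.8 to 17.3 CPM (median 14.8) at 3 weeks and 48.9 to 63.1 CPM (median 58.8) at 32 weeks. Slamf1 (CD150), a mark of long-term stem cells and megakaryocyte progenitors, rose by 1.86, Meis1 by 1.53 and Hlf by 1.18. Fgd5 and Hoxa9 were not called, at -0.20 and -0.22, and Ctnnal1 fell by 0.32.

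Genes of the fetal and neonatal programme of blood stem cells were not uniformly lower. Lin28b, the RNA-binding protein that blocks let-7 and keeps blood formation fetal in type, was too low to test. It had 48 counts over the 8 libraries of 3 weeks, in 7 of them, and 0 over the 9 libraries of 32 weeks, where 3 counts would have been 0.0211 CPM, so the pooled level at 3 weeks was at least 4.85-fold higher. Igf2bp3 and Hmga2, both kept low by let-7, fell by 3.66 and 1.52. Igf2bp3 ranged over 10.2 to 15.6 CPM (median 11.7) at 3 weeks and 0.559 to 1.32 CPM (median 0.984) at 32 weeks, and the ages did not overlap. The related Lin28a and Igf2bp2, in contrast, rose by 1.28 and 1.27, and Mycn by 1.46. Of 13 imprinted growth genes tested, 5 rose and 4 fell. H19, a growth-restraining RNA of fetal tissue, ranged over 4.86 to 12.8 CPM (median 8.68) at 3 weeks and 0.211 to 0.563 CPM (median 0.297) at 32 weeks, and Peg3 over 0.708 to 1.38 CPM (median 1.09) at 3 weeks and 0.0767 to 0.281 CPM (median 0.187) at 32 weeks. Igf2, the neighbour of H19, was not called (-0.028), nor was Mest (-0.059), and Peg10 rose by 1.91.

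Bone-forming cells gave a mixed picture, with 5 of 17 genes higher, 8 lower and 4 not called. The genes that fell furthest encode the products of active osteoblasts. Col1a1 ranged over 217 to 644 CPM (median 346) at 3 weeks and 45.8 to 118 CPM (median 67.9) at 32 weeks (-2.31 ± 0.22, edgeR adjusted p = 5.71e-09), and Bglap over 22.0 to 46.9 CPM (median 30.5) at 3 weeks and 3.48 to 10.4 CPM (median 5.19) at 32 weeks. Bglap2, whose reads can be confused with those of Bglap, fell by 2.59, whereas the third copy, Bglap3, rose by 1.29. Alpl, the alkaline phosphatase of mineralising cells, fell by 1.04. Genes of lineage control did not follow: Runx2 rose by 1.15, and Sp7 and Dlx5 were not called (-0.053 and -0.036). Spp1 (osteopontin), which macrophages also express, and Ibsp (bone sialoprotein) rose by 1.23 and 1.14.

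Genes of fibrous matrix fell in 13 of 15 cases, with a median of -0.83. Eln (elastin) and Fbn2 (fibrillin-2), both laid down chiefly during growth, fell by 2.45 and 2.37, and Col3a1 by 1.61. Thbs2 alone rose, by 0.38. Of 6 chondrocyte genes tested, 3 rose and 2 fell, with a median of 0.24. With the length and GC trend removed 2 rose and 3 fell, with a median of 0.0094, and without the 3 libraries that stand apart 2 rose and 2 fell, with a median of 0.061. The growth plate genes Col10a1 and Col11a1 fell by 3.03 and 3.27. The cartilage genes Col2a1, Comp and Prg4 rose by 0.76, 1.21 and 0.94, although the call of Col2a1 was lost under both of these settings, and 10 of the 16 chondrocyte genes with a row were too low to test. Skeletal muscle genes fell in all 10 tested members, with a median of -2.78, the lowest of all lists. Their summed level was 36.8 to 153 CPM at 3 weeks, with control male 3 weeks replicate 1 highest, and 10.02 to 26.7 at 32 weeks. Acta1, skeletal muscle actin, ranged over 5.74 to 36.4 CPM (median 9.97) at 3 weeks and 0.447 to 2.25 CPM (median 0.838) at 32 weeks. Marrow holds no skeletal muscle, and the library with the most muscle RNA was also that with the most Col1a1, at 644 CPM. The part of carried-over tissue in the falls of bone and matrix genes was not tested.

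In the reticular stroma, which holds and feeds blood stem cells, 11 of 14 genes were higher, and the matrix genes Lum (lumican) and Dcn (decorin) fell by 1.17 and 0.30, although the call of Dcn was lost when libraries were scaled by their totals alone. Cxcl12, the chemokine that retains stem cells and B-cell precursors, ranged over 353 to 887 CPM (median 584) at 3 weeks and 1465 to 1645 CPM (median 1605) at 32 weeks (1.43 ± 0.11, edgeR adjusted p = 2.53e-10), and the ages did not overlap. Lepr, the leptin receptor that marks these cells, rose by 0.85, Kitl (stem cell factor) by 0.68 and Angpt1 by 1.48. Il7, the cytokine on which B-cell precursors depend, was not called (0.42, edgeR adjusted p = 0.0919). Gas6, a ligand of the receptors Axl and Mertk, rose by 2.10, and so did these receptors, by 0.96 and 1.30.

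Osteoclast genes rose in 7 of 13 cases and fell in 2. Tnfrsf11a (RANK), the receptor that starts osteoclast formation, rose by 0.89 and Nfatc1 by 0.95. Of the genes by which osteoclasts acidify bone, the pump subunit genes Tcirg1 and Atp6v0d2 rose by 0.92 and 3.50, and Clcn7, a chloride transporter, and its partner Ostm1 by 0.15 and 0.73, although Clcn7 turned to -0.040 and lost its call with the length and GC trend removed. Of the enzyme genes Ctsk (cathepsin K) was not called (0.059) and Acp5 fell by 0.44. Car2 fell by 1.19, and it is also a red-cell gene. Tnfsf11 (RANKL), the ligand, fell by 2.02, with overlap, at 3.32 to 11.4 CPM (median 6.37) at 3 weeks and 0.890 to 3.995 CPM (median 1.45) at 32 weeks. Csf1 and Il34, the 2 ligands of the macrophage receptor, rose by 1.53 and 2.06.

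Adipocyte genes did not mark a shared rise in males. 6 of 9 tested were higher and 3 lower, and Cfd (adipsin) fell by 2.44 with overlap, at 1.56 to 30.1 CPM (median 8.98) at 3 weeks and 0.559 to 2.77 CPM (median 1.46) at 32 weeks. Adipoq (adiponectin), which marrow stroma also makes, rose by 0.40. Of endothelial genes 5 of 14 were higher and 5 lower, or 6 and 3 by totals and 4 and 7 with the length and GC trend removed. In the growth and steroid hormone axis 13 of 16 genes were higher, among them the receptor genes for growth hormone, Ghr (0.67) and mineralocorticoids, Nr3c2 (1.79), and only Vdr fell, by 0.80.

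Housekeeping groups had small medians that depended on the scaling. Ribosomal protein genes were lower in 58 of 79 cases, but their median was -0.25 and only 6 did not overlap. Scaled by library totals alone, 36 were lower, with a median of -0.14, and with the length and GC trend removed 72, with a median of -0.35. Genes of oxidative phosphorylation were lower in 55 of 82, with a median of -0.23, and by totals alone in 37, with a median of -0.12, and with the trend removed in 68, with a median of -0.32. Among core histone genes, whose RNAs mostly lack poly(A) tails, 48 of 62 were not called. In the clock list 11 of 14 rose, with Arntl (BMAL1) at -1.23 and its repressor Nr1d1 at 0.93, and the labels give no time of day. Immediate early genes rose in 9 of 15 cases, led by Atf3 with 2.24. In the Trim5 and Trim30 cluster, whose members share sequence, 3 of 7 were higher, with Trim30b at 1.38, and none was free of overlap. Without the 3 libraries that stand apart, 2 were higher and 1 lower. Over all genes 38.9% were called higher and 47.7% were free of overlap, and 3 of 7 lies close to the share called higher.

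The same comparison was made within each genotype, which asks whether the maturation of the marrow depends on Nox4. In control males 8573 genes were called (62.3%), in CKO males 9517 (69.1%) and in Nox4-/- males 8017 (58.2%). Leaving out the deepest library, replicate 3 of the Nox4-/- males of 3 weeks, brought the Nox4-/- count to 5976, in a fit that has 1 library left in that group and takes its spread from the other groups, assuming that it varies like them. Of 6909 genes called in all 3 genotypes, 6908 changed in the same direction in all 3. Across the 13768 genes the age effects of control and CKO males had a Pearson r of 0.929, those of control and Nox4-/- males of 0.935 and those of CKO and Nox4-/- males of 0.926, as a description across genes, which are not independent replicates.

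With the filter on low counts and all 17 libraries, edgeR called no gene's age effect different between genotypes. The age by CKO interaction called 0 genes (0%) and the age by Nox4-/- interaction 0 (0%), with 1775 and 376 genes below 0.05 before adjustment. Without the filter edgeR called 2 genes for CKO, Atp10d and Siglec1, and without control male 32 weeks replicate 1 it called Atp10d, names that were chosen after their values were seen. DESeq2 called 62 and 0, and limma on the deposited log2 values 0 and 0. The age effects were nevertheless larger in size in CKO males. Changes of at least 1 on the log2 scale were called for 2933 genes in CKO, 2046 in control and 2109 in Nox4-/- males. Ignoring sign, the middle gene changed by 0.51 in CKO, 0.41 in control and 0.40 in Nox4-/- males. Whether CKO males change more with age across genes as a whole was not tested. The list medians of the 3 genotypes lay on the same side of 0 for most lists, as the plot by genotype shows. B-cell precursors gave -0.999, -1.04 and -1.20 in control, CKO and Nox4-/- males, and megakaryocyte genes 2.11, 2.203 and 1.76. The T-cell medians were farther apart, at 0.99, 2.23 and 1.44, but no T-cell gene passed the interaction test.

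**Figure D4:**
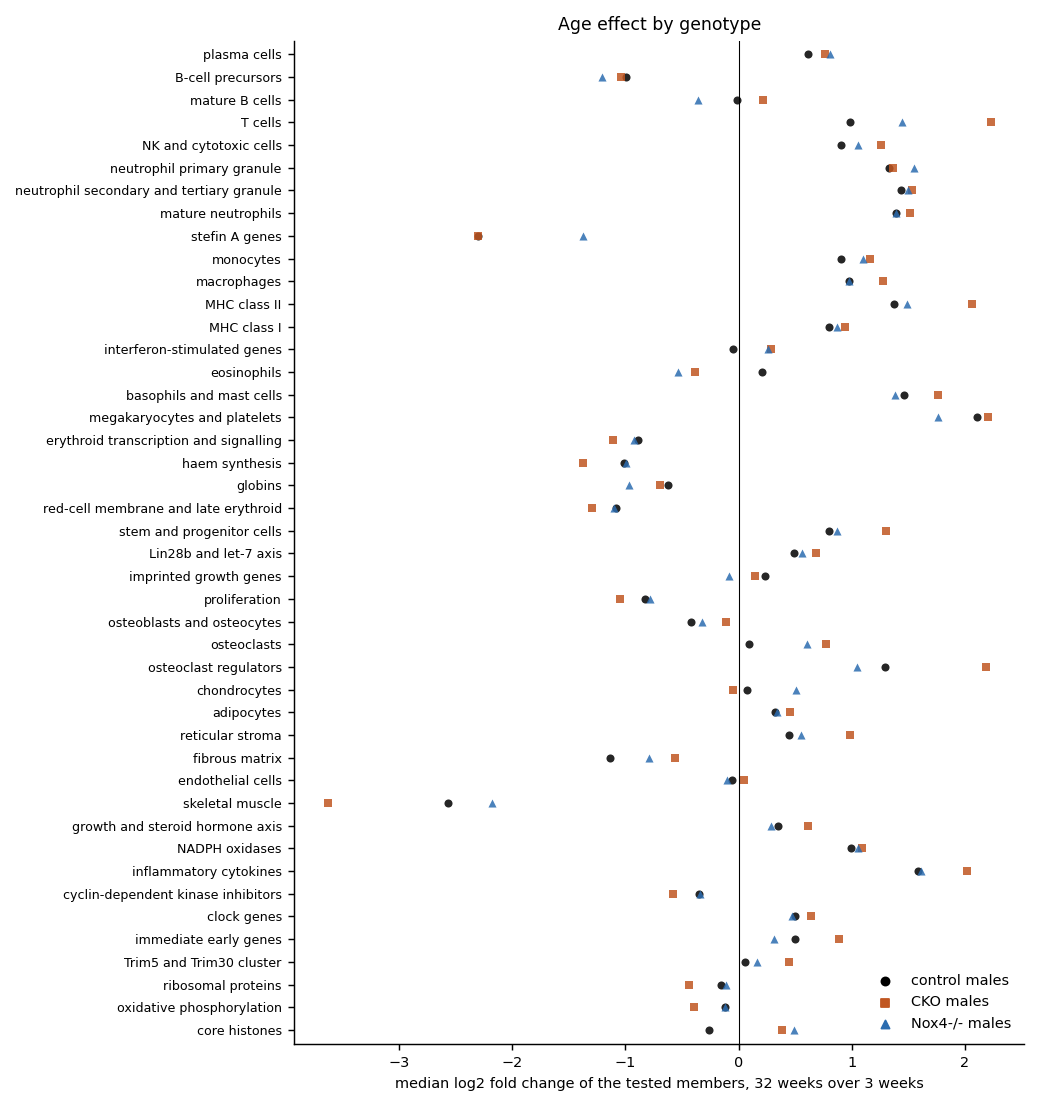
Median log2 fold change of 32 weeks over 3 weeks (horizontal axis) of the tested members of each gene list (rows), fitted within control (black circles), CKO (orange squares) and Nox4-/- males (blue triangles). The 3 genotypes lie close together in most rows, as for proliferation genes at -0.83, -1.05 and -0.78.

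Nox4 itself, the deleted gene, was close to absent from male marrow. Control males had 9 Nox4 counts over 3 libraries at 3 weeks and 1 at 32 weeks, CKO males 4 and 0, and Nox4-/- males 0 at both ages. Counts are per gene, so reads from the exons that the Nox4-/- allele keeps would be counted too, and counts this low check the labels only weakly. The 0 of Nox4-/- males allows up to 0.0148 CPM at 3 weeks and 0.0591 at 32 weeks by counting error, taking 3 counts as the limit. The level averaged 0.0400 CPM at 3 weeks and 0.00586 at 32 weeks over all males (exact permutation test, two-sided, p = 0.0701, adjusted p = 0.0701, n = 8 and 9). That test pooled the genotypes, and 6 of the 9 control counts at 3 weeks lay in replicate 1. It therefore cannot decide whether Nox4 changed with age. Cyp2s1 separated the CKO libraries from the rest at both ages, with 7.11 to 9.54 CPM at 3 weeks and 21.7 to 26.4 at 32 weeks in CKO males, against at most 1.30 CPM in any control or Nox4-/- library. That highest value belonged to control male 32 weeks replicate 3, the library with 908 Xist counts, and the other 2 controls of that age had at most 0.211 CPM.

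Most of the age effect was shared by the sexes. In a joint fit with the 18 female libraries, which carry the same 3 genotypes and ages, the male and female age effects had a Spearman rho of 0.950 across genes. The interaction of age and sex called 493 of 14840 genes (3.32%), 302 with a higher and 191 with a lower male change. Leaving out Nox4-/- male 3 weeks replicate 3 gave 223 and leaving out CKO male 32 weeks replicate 2 gave 889, while without CKO male 3 weeks replicate 3, control male 32 weeks replicate 1, CKO male 32 weeks replicate 3, Nox4-/- male 32 weeks replicate 3 or control female 32 weeks replicate 1 it lay between 305 and 326. Without Nox4-/- male 3 weeks replicate 1 it was 752. The number thus rests in part on single libraries. Male and female levels below come from this joint fit.

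Among genes with a higher male change, Serpina3n, an acute-phase protease inhibitor, had the smallest adjusted p. Serpina3n ranged over 0.348 to 1.92 CPM (median 1.24) at 3 weeks and 12.5 to 22.2 CPM (median 16.4) at 32 weeks in males and 0.217 to 1.54 CPM (median 0.736) at 3 weeks and 0.581 to 1.85 CPM (median 0.878) at 32 weeks in females, a difference of 3.41 ± 0.36 (edgeR adjusted p = 6.13e-07). Serpina3n rose by 3.93 in males and was not called in females (0.52). Fmod (fibromodulin), a collagen-binding proteoglycan, fell by 3.66 in females and by 0.59 in males, and Igf2 fell by 1.79 in females and had -0.027 in males. Cldn10, a tight junction gene, gave 0.43 and -1.08 in males and females. Clec7a and Selenop (selenoprotein P) rose in both sexes, with male minus female differences of 0.87 and 0.54. Of the 3 neutrophil lists, 7 of 14 genes of mature neutrophils, 3 of 12 of the secondary and tertiary granules and 0 of 8 of the primary granules had a larger rise in males, as with S100a8 (1.69 and 1.09), and none a smaller one. Without Nox4-/- male 3 weeks replicate 3 the difference for S100a8 was no longer called (edgeR adjusted p = 0.0653). Atp6v0d2 rose by 3.50 and 2.41, a difference of 1.09 ± 0.19. For Gpnmb the difference, 1.40 ± 0.46, was not called (edgeR adjusted p = 0.0834).

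Among genes with a lower male change, Aldh1a2, an enzyme that makes retinoic acid, had the smallest adjusted p, and several genes below differed by more. Aldh1a2 ranged over 0.899 to 1.63 CPM (median 1.22) at 3 weeks and 1.16 to 3.47 CPM (median 1.82) at 32 weeks in males and 2.24 to 5.41 CPM (median 4.20) at 3 weeks and 22.4 to 55.4 CPM (median 27.5) at 32 weeks in females (-2.47 ± 0.19, edgeR adjusted p = 1.87e-09). Spon1, a matrix protein, rose by 1.83 in males and 3.29 in females. Ptn (pleiotrophin), a growth factor of marrow stroma and endothelium, fell by 3.77 in males and was not called in females (-0.28). A2m gave -0.65 and 1.26, Gpc4 0.093 and 0.94, and Col14a1 -0.83 and 0.59. Of 15 fibrous matrix genes, 8 had a lower change in males, 6 had no called difference and 1, Fmod, had a higher one. Fbn2 fell by 2.37 in males and by 0.55 in females.

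Of the 9 adipocyte genes tested in males, 4 had a lower change in males than in females, 0 a higher one and 5 no called difference. Cfd changed by -2.43 in males and 1.87 in females, and Car3, a carbonic anhydrase of fat and muscle, by -1.75 and 1.42. Plin1 (perilipin), the coat of the fat droplet, was too low to test in males and passed the filter on low counts only in the fit to both sexes, so its levels are given as a description. Plin1 ranged over 0.148 to 1.78 CPM (median 0.723) at 3 weeks and 0 to 0.488 CPM (median 0.132) at 32 weeks in males and 0.0823 to 1.46 CPM (median 0.908) at 3 weeks and 1.23 to 9.59 CPM (median 2.19) at 32 weeks in females. Interferon-stimulated genes were lower in the male contrast in 9 of 25 cases and higher in none. Irf7, the factor that amplifies interferon, was -0.40 in males and 0.38 in females. B-cell precursor, T-cell, megakaryocyte, red-cell and proliferation genes gave no called sex difference except Cd4 on the T-cell list, with a larger rise in males by 0.83.

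**Figure D5:**
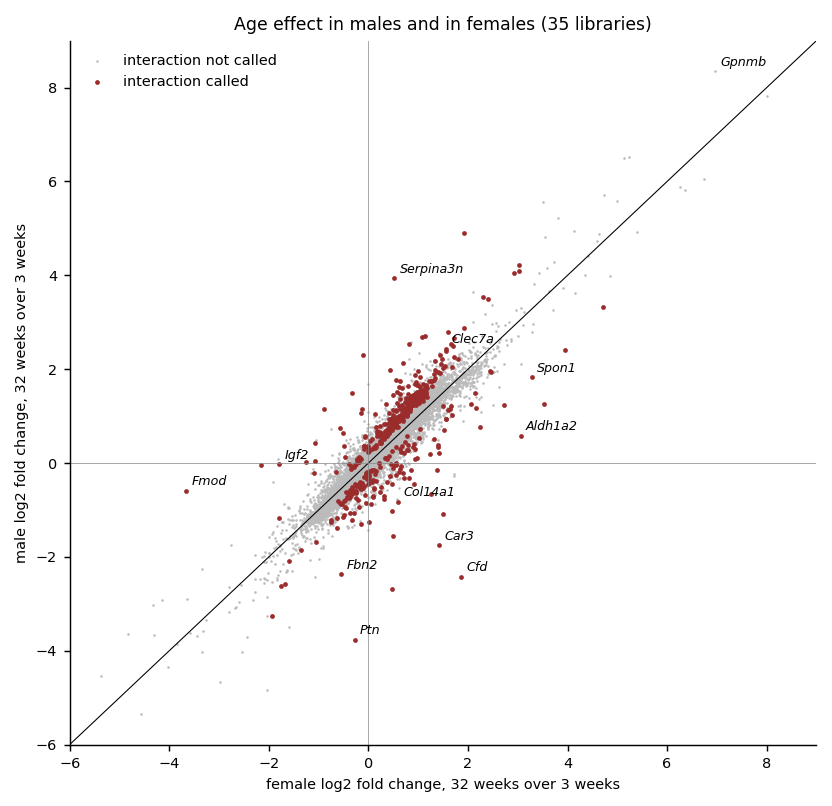
Log2 fold change of 32 weeks over 3 weeks in females (horizontal axis) and males (vertical axis) for 13767 genes of the joint fit of 35 libraries, with the diagonal of equal change; 466 genes with a called interaction of age and sex are dark red. Most genes lie along the diagonal, and labelled genes such as Serpina3n, Fmod, Aldh1a2 and Ptn lie off it.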

How the data were processed

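RNA-seq was done on femur marrow of male and female mice of 3 genotypes at 2 ages, each library being RNA pooled from several mice. The authors removed contaminants with Bowtie2 2.2.5, aligned reads to mm10 with STAR 2.7.3a in Partek Flow and counted them on RefSeq transcripts. The deposited counts per gene, raw read counts, were used for all main tests. The deposited log2 values, which the authors made as log2 (TMM + 1), were used only as an alternative. Of 24623 features, 26 named by a number and holding 0.222% of the counts in the 17 libraries were left out.

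Genes kept by filterByExpr were scaled with TMM and tested in R 4.3.3 with edgeR 4.0.16 (quasi-likelihood test, Benjamini-Hochberg adjustment, threshold 0.05), with age and genotype as terms for the age effect, a group term for effects within a genotype and their interactions, and all 35 libraries for the interaction of age and sex. Shares of counts were compared with an exact permutation test over all splits of the 8 and 9 libraries. Low values were limited by depth, and intervals from counts cover counting error only. The fits were tested on simulated counts before use. Alternatives used DESeq2 1.42.0, limma 3.58.1, other scalings and filters, thinning, a replicate block and each library left out. The length and GC trend, the removal of 3 libraries and the count of identical rows once were chosen after seeing the data.

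The labels do not say that a replicate number marks shared animals or days. Genes were named by a rule: the 10 largest rises and 10 largest falls among called genes with a mean log2 CPM of at least 3 and no overlap between the ages, members of 45 gene lists (811 genes), up to 6 genes per direction for sex, Nox4 and Cyp2s1. Some list members are not reported here. The libraries, lists and tests were chosen with earlier results of these data known. Promoter windows and gene positions are from RefSeq tables (GRCm38.p6).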

Additional observations from a re-analysis of the deposited data

Results flagged for a closer look

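In 28 of 374 sets of libraries of 1 age, each holding the log2 CPM of a named gene or a share of counts, 1 library lay far from the rest, with a gap to its nearest neighbour that was larger, as a share of the range, than Dixon's 95% critical value. Chance does this in about 1 of 20 sets. CKO male 32 weeks replicate 2 was the library in 12 of them. It was the highest library of 32 weeks, with the gap given in brackets, for Ccl2 (0.579), Ccl5 (0.614), Csf1 (0.800), Gp1bb (0.568), Itga2b (0.563), Peg10 (0.510), Pf4 (0.660) and Tnfsf11 (0.611). It was the lowest for Cdc20 (0.568), Csf3r (0.519), Cybb (0.613) and Rag1 (0.618). The genes in which it was high include chemokines and megakaryocyte genes, and those in which it was low include neutrophil genes. CKO male 3 weeks replicate 1 was the lowest for Derl3 at 3 weeks (0.541), highest for Kif11 at 3 weeks (0.536), lowest for Rag2 at 3 weeks (0.544) and lowest for Timd4 at 3 weeks (0.653). CKO male 32 weeks replicate 1 was the highest for Hlf at 32 weeks (0.547). CKO male 32 weeks replicate 3 was the lowest for Aurka at 32 weeks (0.4933) and lowest for Slc30a10 at 32 weeks (0.513). Nox4-/- male 3 weeks replicate 1 was the highest for Ltf at 3 weeks (0.587), highest for Trim30b at 3 weeks (0.585) and highest for Trim5 at 3 weeks (0.621). Nox4-/- male 3 weeks replicate 3 was the highest for Itga2b at 3 weeks (0.592). Nox4-/- male 32 weeks replicate 2 was the lowest for Col10a1 at 32 weeks (0.494), lowest for Cxcl12 at 32 weeks (0.603) and highest for Timd4 at 32 weeks (0.518). Control male 3 weeks replicate 3 was the highest for the stefin A share of counts at 3 weeks (0.616). Control male 32 weeks replicate 1 was the lowest for Igf2 at 32 weeks (0.636).

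The age effect differed between the sexes by the interaction test in edgeR for 493 genes. Among the named genes the male change minus the female change was positive on the log2 scale for Atp6v0d2 (1.09), Cd4 (0.83), Cldn10 (1.51), Clec7a (0.87), Fmod (3.07), Igf2 (1.76), S100a8 (0.60), Selenop (0.54) and Serpina3n (3.41). It was negative for A2m (-1.91), Aldh1a2 (-2.47), Car3 (-3.17), Cfd (-4.30), Cidec (-4.83), Col14a1 (-1.42), Fbn2 (-1.82), Gpc4 (-0.85), Irf7 (-0.78), Plin1 (-5.25), Ptn (-3.49) and Spon1 (-1.46). Cidec and Plin1 were too low to test in males and passed the filter on low counts only in the fit to both sexes, so their differences are a description. Of the other differences, that of Aldh1a2 had the smallest edgeR adjusted p, 1.87e-09, and none was above 0.0180.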

How the results depend on the processing

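The age effect in males called 10739 genes, between 10528 and 10778 with any 1 library left out and between 9923 and 11861 under the other settings. The counts within genotypes with 1 library left out were 7851 to 8691 in control, 8866 to 9676 in CKO and 5976 to 8234 in Nox4-/- males, where the fits without a 3-week library have 1 left in that group and take its spread from the others. The age by CKO interaction called 0 genes in edgeR, 62 in DESeq2 (47 up and 15 down), 2 with no filter on low counts, and 0 to 1 with a library left out. The 2 genes were Atp10d and Siglec1, at 0.94 and 1.08 with an edgeR adjusted p of 0.0359 for both, and the 1 gene, without control male 32 weeks replicate 1, was Atp10d, all chosen after their values were seen. The age by Nox4-/- interaction called 0 genes with any 1 library left out. The age by sex interaction called 493 genes, 309 with libraries thinned to the smallest total, 694 in DESeq2, 352 with scaling by totals, and 223 to 889 with a library left out. Thinning leaves fewer counts, and the causes of the other shifts were not tested.

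With a library left out, the difference of 32 weeks minus 3 weeks ranged from -4.29 to -3.24 percentage points for globins, -0.00597 to -0.00340 for stefin A genes, -2.201 to -1.29 for the 10 genes with most counts (all libraries -1.78, exact permutation p = 0.0636, adjusted p = 0.0701) and -0.553 to -0.347 for ribosomal proteins (all libraries -0.448, exact permutation p = 0.0345, adjusted p = 0.0575). With identical globin rows counted once, chosen after seeing the data, the globin difference was -3.70 (exact permutation p = 0.00169). With a library left out, the Nox4 difference ranged from -0.0400 to -0.0193 CPM. The p for the 10 genes, ribosomal proteins and Nox4 crossed 0.05 under some of these removals.

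With totals as the only scaling, Dcn lost its call and Il7 and Il18 gained one. Of 183 genes named for age, those not called before and called without some library were Fgd5, Hoxa9, Il7 and Prg2, and H2-Ob lost its call without 12 of the 17 libraries in turn. With the length and GC trend removed, the median over all genes moved to -0.12, Clcn7 turned to -0.040 (edgeR adjusted p = 0.386), Lck turned to -0.16 (edgeR adjusted p = 0.0383) and H2-Ob was 0.18 (edgeR adjusted p = 0.0830). Under the same setting calls were gained by Cdkn1a (-0.31), Epx (-0.34), Prg2 (-0.39), Fgd5 (-0.41) and Hoxa9 (-0.33), all lower at 32 weeks, 3 of 14 stem cell genes were lower instead of 1, 3 of 16 hormone axis genes instead of 1, 5 of 10 mature B-cell genes instead of 3 and 8 of 62 core histone genes instead of 5. The male minus female difference of Gpnmb was called without either CKO female 32 weeks replicate 2 or Nox4-/- female 32 weeks replicate 2.

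With the replicate number as a block, 10755 genes were called for age, 8722, 9602 and 8084 within control, CKO and Nox4-/- males, 0 for each genotype interaction and 528 for sex. Deviations of same-numbered libraries correlated at -0.084 to 0.15, so the numbers were not taken to pair libraries, although 6 of 8 libraries of 3 weeks, the 3 controls included, were closest to the 32-week library of their own number.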

Other observations

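Lrrn1, a leucine-rich repeat membrane protein, was chosen after its values were seen. It had 104 counts over the 9 male libraries of 32 weeks, with 3 to 22 in each of them, and 0 over the 9 female libraries of that age, where 3 counts over the group would have been 0.0141 CPM. The pooled male level was at least 52.1-fold higher. No test was run on it.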
